A study of Mus musculus with 6 samples.

Results

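The airway secretory genes described here are 8 genes of the RNA-seq table from mouse lung tumors: the secretoglobins *Scgb1a1*, *Scgb3a2* and *Scgb3a1*, the mucin *Muc5b*, the BPI fold proteins *Bpifa1* and *Bpifb1*, the lectin *Reg3g* and the immunoglobulin transporter *Pigr*. They were taken by gene symbol, and all 8 were found among the 17987 genes of the table. RNA came from lung tumor specimens of 3 *Usp24* C1695A mice (titled Dox_KO_134, Dox_KO_145 and Dox_KO_164, here KO_134, KO_145 and KO_164) and 3 *Usp24* WT mice (Dox_WT_1354, Dox_WT_1364 and Dox_WT_1370, here WT_1354, WT_1364 and WT_1370), with 1 library per mouse. The titles call the mutants KO, but C1695A replaces the catalytic cysteine of the deubiquitinase USP24 and is no deletion, and the *Usp24* C1695A mice were homozygous for it. The growth protocol among the labels names *Usp24* C1695A for all 6 mice, and the name of the deposited table has C1698A, so the genotypes used here follow the titles and the genotype label of each sample. By the methods of the study, mice of both genotypes had a C57BL/6J background and carried *Scgb1a1*-rtTA with TetO-*Egfr* L858R, and both received doxycycline at 0.5 g/liter for 10 weeks, which switches on the mutant receptor. By the name of the transgene, rtTA is driven by a promoter of *Scgb1a1*, which is also a gene described here. Which cells expressed the mutant receptor was not examined here. The labels give no age or sex for any mouse. The values are normalized read counts, in which the reads of a gene are scaled by a single factor for each library.

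Club cells are nonciliated secretory cells of the conducting airways. They secrete secretoglobins into the airway lining fluid and, through cytochrome P450 enzymes, metabolize inhaled compounds. In the larger airways of the mouse, secretory cells also release the gel-forming mucin MUC5B and antimicrobial proteins, and they carry polymeric IgA to the lumen.

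The libraries held 12337212, 12516561 and 7167000 reads in *Usp24* C1695A mice KO_134, KO_145 and KO_164 and 12515628, 8950184 and 14650273 reads in *Usp24* WT mice WT_1354, WT_1364 and WT_1370. *Usp24* C1695A mouse KO_164 stood apart: mitochondrial transcripts took 17.2% of its reads, against 1.74 to 3.10% in the other 5 libraries. *Usp24* mRNA had 887, 1054 and 1125 normalized counts in *Usp24* C1695A mice and 1194, 895 and 1225 in *Usp24* WT mice, a level that does not show the amino acid exchange. The alveolar type 2 marker *Sftpc* stood between 67192 and 291169 normalized counts in every library, and the cartilage gene *Col2a1* and the basal cell keratin *Krt5* were not among the genes analysed here. Of 10 listed cartilage genes, 2 others were analysed, with a summed level of 54.7, 94.0 and 51.5 normalized counts in *Usp24* C1695A mice and 96.6, 128 and 103 in *Usp24* WT mice. Of 6 listed basal cell genes, 2 others were analysed and 1 of these was tested. Their summed level was 28.4, 42.5 and 137 normalized counts in *Usp24* C1695A mice and 8.31, 15.8 and 10.3 in *Usp24* WT mice. Y-linked genes were read in all 3 *Usp24* C1695A mice and in *Usp24* WT mouse WT_1354 and were at 0 in *Usp24* WT mice WT_1364 and WT_1370, as for *Eif2s3y* with 2204, 2187 and 2419 normalized counts in *Usp24* C1695A mice and 1899, 0 and 0 in *Usp24* WT mice.

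*Scgb1a1*, which encodes the main secreted protein of club cells (CCSP, ENSMUSG00000024653), was the most abundant of the 8 genes in every library. It had 35497, 39948 and 77426 normalized counts in *Usp24* C1695A mice KO_134, KO_145 and KO_164 and 21923, 37778 and 19267 in *Usp24* WT mice WT_1354, WT_1364 and WT_1370. The genotypes overlapped, because *Usp24* WT mouse WT_1364 lay above *Usp24* C1695A mouse KO_134, and mouse KO_164 held the highest value by a wide margin. The means were 50957 ± 23031 in *Usp24* C1695A mice and 26323 ± 10009 in *Usp24* WT mice (SD, n = 3 each). On the scale of log2(normalized count + 1) the difference was 0.93 (SE 0.41, 95% interval 0.0012 to 1.85) by limma-trend, with an unadjusted p of 0.0498 and an adjusted p of 0.738 over 16640 genes. The difference was 0.58 without mouse KO_164 and between 0.73 and 1.22 without any one of the others. *Scgb1a1* transcripts made up 0.284, 0.323 and 0.546% of all reads in *Usp24* C1695A mice and 0.169, 0.293 and 0.140% in *Usp24* WT mice. In these bulk specimens, a difference in the number of secretory cells and a difference in RNA per cell cannot be told apart.

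*Scgb3a2*, a secretoglobin of the distal and proximal airway epithelium (ENSMUSG00000038791), came next. It had 1568, 1180.2 and 3605 normalized counts in *Usp24* C1695A mice KO_134, KO_145 and KO_164, against 1188, 993 and 323 in *Usp24* WT mice WT_1354, WT_1364 and WT_1370. Mouse KO_164 was again the highest and *Usp24* WT mouse WT_1370 the lowest, and the genotypes touched, with *Usp24* C1695A mouse KO_145 just below *Usp24* WT mouse WT_1354. The log2 difference of 1.37 (SE 0.54, 95% interval 0.13 to 2.62) had an unadjusted p of 0.0342 and an adjusted p of 0.738 by limma-trend. It was 0.91 without mouse KO_164 and 0.79 without mouse WT_1370. Relative to *Scgb1a1* of the same library, *Scgb3a2* stood at 4.42, 2.95 and 4.66% in *Usp24* C1695A mice and 5.42, 2.63 and 1.68% in *Usp24* WT mice, so that this ratio put *Usp24* WT mouse WT_1354 above every *Usp24* C1695A mouse.

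*Pigr* encodes the receptor that takes polymeric IgA and IgM across the epithelium (ENSMUSG00000026417) and was the steadiest of the 8 genes. Its normalized counts were 456, 411 and 731 in *Usp24* C1695A mice and 565, 461 and 332 in *Usp24* WT mice. The values of both genotypes were interleaved. The log2 difference was 0.22 (SE 0.29, 95% interval -0.43 to 0.87, unadjusted p = 0.460, adjusted p = 0.850 by limma-trend), and it was -0.031 without mouse KO_164 and 0.014 without mouse WT_1370. Its within-genotype SD of 0.42 on the log2 scale was the smallest among the 8 genes, where genes of like level had a median SD of 0.28.

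**Figure D1:**
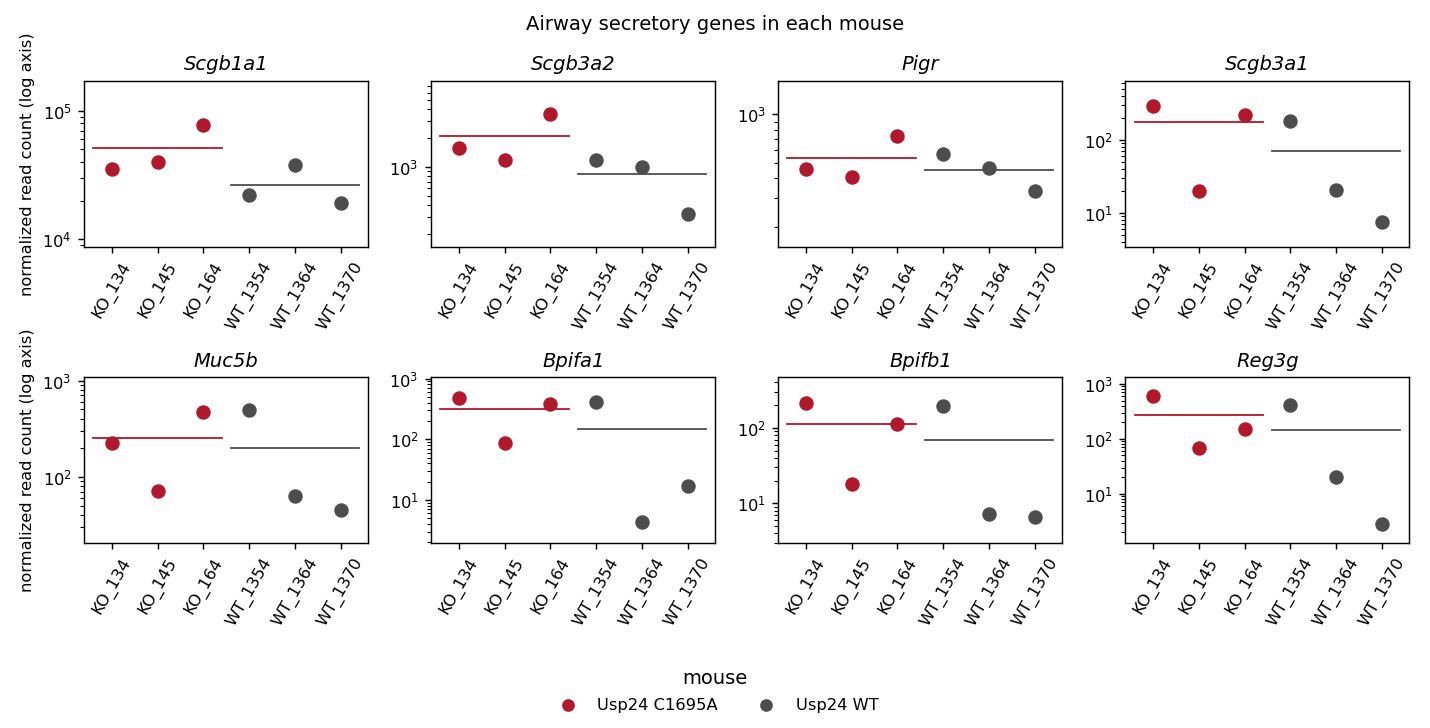
Normalized read counts (log axis, own range per panel) of the 8 airway secretory genes in each mouse, with *Usp24* C1695A in red, *Usp24* WT in grey and a line at each genotype's mean (n = 3 each). In the 5 panels from *Scgb3a1* to *Reg3g*, *Usp24* WT mouse WT_1354 sits with *Usp24* C1695A mice KO_134 and KO_164, and *Usp24* C1695A mouse KO_145 and *Usp24* WT mice WT_1364 and WT_1370 lie below these 3.

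The other 5 genes shared a pattern that did not follow genotype. *Scgb3a1*, *Muc5b*, *Bpifa1*, *Bpifb1* and *Reg3g*, grouped after their values were seen, each had their 3 highest values in *Usp24* C1695A mice KO_134 and KO_164 and *Usp24* WT mouse WT_1354, and each had their 3 lowest in *Usp24* C1695A mouse KO_145 and *Usp24* WT mice WT_1364 and WT_1370. *Scgb3a2* had the same 3 highest mice, over a much narrower range, whereas *Scgb1a1* and *Pigr* did not. The mean log2 values of other club cell genes and of ciliated cell markers, both described below, were also highest in these 3 mice.

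*Scgb3a1*, a secretoglobin found in mice mainly in the trachea and larger bronchi (ENSMUSG00000064057), had 288, 19.8 and 216 normalized counts in *Usp24* C1695A mice KO_134, KO_145 and KO_164. In *Usp24* WT mice WT_1354, WT_1364 and WT_1370 it had 179.7, 20.2 and 7.52. The *Usp24* C1695A mice thus spanned 14.5-fold and the *Usp24* WT mice 23.9-fold, and mice KO_145 and WT_1364 of different genotypes were nearly equal. The log2 difference was 1.77 (SE 1.26, 95% interval -1.10 to 4.64, adjusted p = 0.751 by limma-trend).

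*Muc5b*, the gel-forming mucin of mucociliary clearance (ENSMUSG00000066108), had 223, 70.2 and 469 normalized counts in *Usp24* C1695A mice and 490.3, 63.3 and 45.1 in *Usp24* WT mice. The highest value of all was that of *Usp24* WT mouse WT_1354. The log2 difference was 0.79 (SE 0.94, 95% interval -1.36 to 2.94, adjusted p = 0.838 by limma-trend) and came to 0.16 without mouse KO_164 and to 1.85 without mouse WT_1354. Relative to *Scgb1a1* of the same library, *Muc5b* reads stood at 0.628, 0.176 and 0.606% in *Usp24* C1695A mice and 2.24, 0.168 and 0.234% in *Usp24* WT mice.

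*Bpifa1* and *Bpifb1* encode secreted lipid-binding proteins of the upper airways, also called SPLUNC1 and LPLUNC1, and both lie on chromosome 2. *Bpifa1* (ENSMUSG00000027483) had 475, 86.1 and 376 normalized counts in *Usp24* C1695A mice and 418, 4.32 and 16.9 in *Usp24* WT mice. The value of *Usp24* WT mouse WT_1364 rested on 3 reads, with a 95% Poisson interval of 0.891 to 12.6 normalized counts that covers counting error only. All 3 *Usp24* C1695A mice exceeded mice WT_1364 and WT_1370, and mouse WT_1354 exceeded 2 of them. The log2 difference of 2.87 (SE 1.42, 95% interval -0.37 to 6.11) was the largest among the 8 genes and had an adjusted p of 0.738 by limma-trend (unadjusted 0.0757). EdgeR, which weighs the reads rather than their logarithms, gave an adjusted p of 0.838 for the same gene, and DESeq2 gave a log2 difference of 1.11 (adjusted p = 0.925).

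*Bpifb1* (ENSMUSG00000027485) had 212, 17.8 and 111 normalized counts in *Usp24* C1695A mice and 193, 7.20 and 6.58 in *Usp24* WT mice. Its order of mice was that of *Reg3g*, with mouse KO_134 first, mouse WT_1354 second and mouse WT_1370 last. The log2 difference was 1.74 (SE 1.32, 95% interval -1.29 to 4.76, adjusted p = 0.761 by limma-trend).

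*Reg3g*, a secreted C-type lectin that kills Gram-positive bacteria and is induced through STAT3 in mouse epithelia (ENSMUSG00000030017), had 599, 67.3 and 154 normalized counts in *Usp24* C1695A mice. In *Usp24* WT mice it had 419, 20.2 and 2.82, the last from 3 reads (95% Poisson interval 0.582 to 8.24). Mouse KO_134 was the highest and mouse WT_1354 the next, and the genotypes overlapped through mouse WT_1354. The log2 difference was 2.52 (SE 1.53, 95% interval -0.97 to 6.0, adjusted p = 0.738 by limma-trend). The differences of genes with libraries of few reads depended on the pseudocount, at 2.93 and 2.26 for *Bpifa1*, 2.59 and 1.85 for *Reg3g* and 1.79 and 1.23 for *Bpifb1* when 0.5 or 10 was added in place of 1.

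The sequences upstream of 4 of these 5 genes are shown because the genes varied together across mice. The RefSeq promoter table (build GRCm38.p6) held entries for 5 of the 8 genes, namely *Scgb3a1*, *Bpifa1*, *Bpifb1*, *Reg3g* and *Pigr*, and not for *Scgb1a1*, *Scgb3a2* and *Muc5b*. The 250 bases before the gene start were searched on both strands for the forkhead cores TGTTTAC and TGTTTGC, the NKX2-1 core CAAGTG, the C/EBP site TTNNGCAA, the STAT site TTCNNNGAA, a kappa B site and the TATA box TATAAA. Each sequence reads 5′ to 3′ in the direction of the gene and ends at the base before its start, and capitals mark every match to one of these motifs. They are the windows of *Scgb3a1* (chr11:49663345-49663594, plus strand), *Bpifa1* (chr2:154142630-154142879, plus strand), *Bpifb1* at the first of its 2 starts (chr2:154190568-154190817, plus strand) and *Reg3g* (chr6:78468875-78469124, minus strand).
Scgb3a1: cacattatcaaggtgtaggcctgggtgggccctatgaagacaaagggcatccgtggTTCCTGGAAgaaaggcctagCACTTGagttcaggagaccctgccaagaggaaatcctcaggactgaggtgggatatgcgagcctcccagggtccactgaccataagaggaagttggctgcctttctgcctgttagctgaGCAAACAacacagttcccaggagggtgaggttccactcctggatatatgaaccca
Bpifa1: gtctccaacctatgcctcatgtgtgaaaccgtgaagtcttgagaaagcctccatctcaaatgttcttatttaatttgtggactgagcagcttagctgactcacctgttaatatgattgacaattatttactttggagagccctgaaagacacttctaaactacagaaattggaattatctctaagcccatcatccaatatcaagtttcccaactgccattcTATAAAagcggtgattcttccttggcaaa
Bpifb1: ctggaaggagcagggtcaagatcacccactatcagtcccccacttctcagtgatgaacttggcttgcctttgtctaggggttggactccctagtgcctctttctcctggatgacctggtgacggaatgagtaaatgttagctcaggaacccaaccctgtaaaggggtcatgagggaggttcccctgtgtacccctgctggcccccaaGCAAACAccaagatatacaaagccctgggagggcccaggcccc
Reg3g: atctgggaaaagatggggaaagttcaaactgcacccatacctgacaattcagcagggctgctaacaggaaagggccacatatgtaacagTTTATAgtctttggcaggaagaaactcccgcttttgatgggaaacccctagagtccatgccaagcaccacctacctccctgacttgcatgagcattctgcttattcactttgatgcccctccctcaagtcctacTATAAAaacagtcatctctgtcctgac
The forkhead core TGTTTGC was found, as its reverse complement GCAAACA, 55 to 49 bases before the start of *Scgb3a1* and 43 to 37 bases before the first start of *Bpifb1*. Of 32851 RefSeq promoters of the same length, 4.30% hold this core. *Scgb3a1* also held the NKX2-1 core, as CACTTG, 174 to 169 bases before the start (11.6% of all promoters) and the STAT site TTCCTGGAA 194 to 186 bases before it (7.02% of all promoters). The second start of *Bpifb1* had a STAT match, TTCCAGGAA, 146 to 138 bases before it. The TATA box, held by 12.4% of all promoters, lay 29 to 24 bases before the start of *Bpifa1* and 27 to 22 bases before that of *Reg3g*, which had a further match in reverse, TTTATA, at 161 to 156 bases. *Pigr* held none of the motifs. TGTTTAC, TTNNGCAA and the kappa B site, which are in 3.17, 9.56 and 1.41% of all promoters, were in none of the 6 windows, and no match overlapped another. No motif was shared by all 5 genes, and a match in these letters is a description of the sequence and not of binding.

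**Figure D2:**
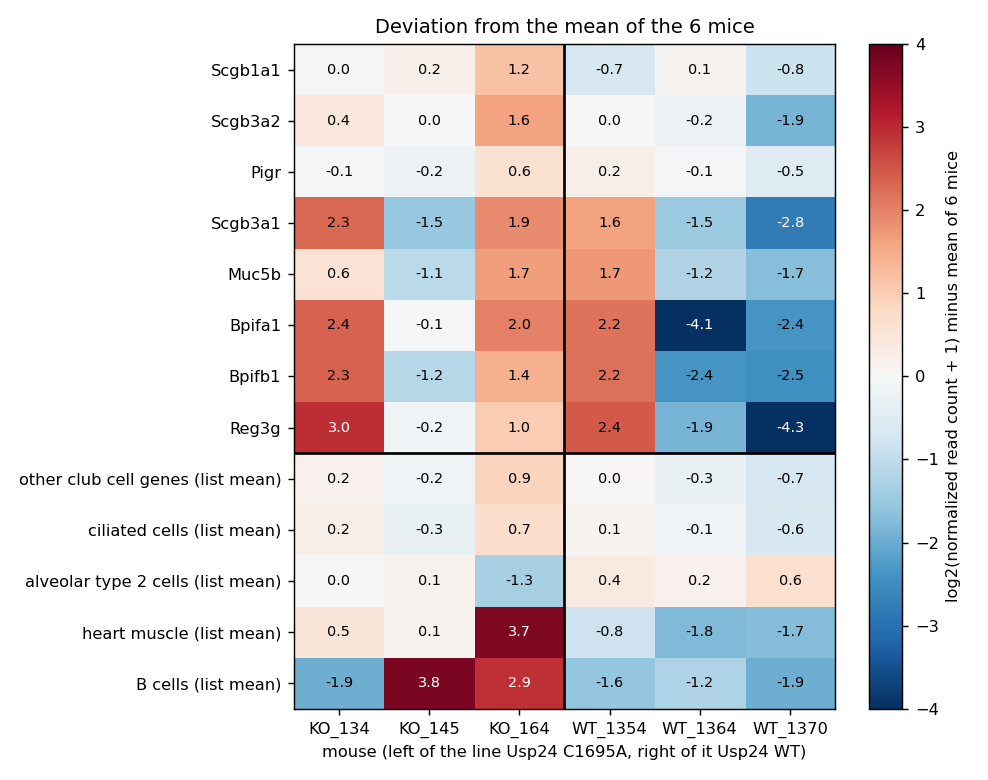
Deviation of log2(normalized count + 1) from the mean of the 6 mice (color and printed value) for the 8 genes and for the means of 5 other gene lists, with *Usp24* C1695A mice left of the vertical line and *Usp24* WT mice right of it. *Reg3g* ran between 3.0 in mouse KO_134 and -4.3 in mouse WT_1370, whereas *Pigr* kept between 0.6 and -0.5.

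Across the 8 genes, the spread among mice of 1 genotype was widest for the 5 genes. The within-genotype SD on the log2 scale was 2.67 for *Reg3g*, 2.48 for *Bpifa1*, 2.28 for *Bpifb1*, 2.17 for *Scgb3a1* and 1.63 for *Muc5b*. Genes of like level (within 0.5 of the mean log2 value) had a median SD of 0.35 to 0.56 in these mice. For *Scgb3a2* the SD was 0.93 beside a median of 0.26, which put it above 98.8% of the genes of its level. For *Scgb1a1* it was 0.56 beside a median of 0.56 over the 12 genes of its level. *Scgb1a1* and *Scgb3a1* did not rank the mice alike: in *Usp24* C1695A mouse KO_145, *Scgb1a1* had its second highest value and *Scgb3a1* its second lowest, nearly equal to that of mouse WT_1364. Pearson's r of log2 values over the 6 libraries was 0.39 for this pair. It was 0.85 for *Scgb1a1* with *Scgb3a2* and 0.78 for *Scgb3a1* with *Scgb3a2*.

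Per kilobase of exon (GENCODE vM21), the median normalized count over the 6 libraries ordered the genes as *Scgb1a1* (76969), *Scgb3a2* (1346), *Scgb3a1* (167), *Bpifa1* (149.6), *Pigr* (114), *Reg3g* (52.4), *Bpifb1* (17.8) and *Muc5b* (9.80). The levels of *Scgb1a1*, between 40477 and 162659 per kilobase, lay above those of *Scgb3a2*, between 367 and 4097, in every library. The next 4 overlapped, with 12.6 to 481 per kilobase for *Scgb3a1*, 2.79 to 308 for *Bpifa1*, 82.4 to 182 for *Pigr* and 1.33 to 283 for *Reg3g*, so that their order is not fixed beyond the spread between mice. *Bpifb1*, at 1.82 to 58.6 per kilobase, and *Muc5b*, at 3.02 to 32.8, overlapped as well.

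In the comparison of the genotypes, none of the 8 genes passed an adjusted p of 0.05 by limma-trend, and of all 16640 tested genes 0% passed (922 had an unadjusted p under 0.05). All 8 passed the filter on low values, which asks for a normalized count of at least 10 in at least 3 libraries. At an unadjusted p under 0.05 there were 2 of the 8 (*Scgb1a1* and *Scgb3a2*), both with a positive difference, against 5.54% of all tested genes in either direction, 2.61% with a positive and 2.93% with a negative difference. By limma-trend their unadjusted p was 0.105 and 0.107 without mouse KO_164, and 0.170 and 0.116 without mouse WT_1370. Without any other single mouse, the p of *Scgb1a1*, *Scgb3a2* or both stayed under 0.05. EdgeR called 0 of the 8 and 0 genes in all (1144, or 6.88%, at an unadjusted p under 0.05), and DESeq2 called 0 of the 8 and 36 genes in all, 0.221% of the genes it adjusted (8.25% at an unadjusted p under 0.05). For *Scgb1a1* the adjusted p was 0.696 by edgeR and 0.389 by DESeq2, and for *Scgb3a2* it was 0.696 by edgeR and 0.355 by DESeq2. The genotypes overlapped in each of the 8 genes, and 11.1% of all tested genes had genotypes that did not overlap. The log2 difference was positive for 8 of the 8 genes and for 48.3% of all tested genes, and the median over the 8 was 1.56 beside -0.02 over all tested genes (0.81 without mouse WT_1370, 2.43 without mouse WT_1354). The median over the 8 was 0.95 by edgeR, 0.94 by DESeq2 and 0.17 when limma-trend weighted each library by its fit. The count models gave smaller differences than limma-trend for *Reg3g* (0.91 by edgeR and 0.90 by DESeq2, against 2.52) and *Bpifb1* (0.73 by both, against 1.74), as for *Bpifa1*. Of the 8 genes, the 5 grouped after their values were seen varied together between mice, with Pearson's r of log2 values from 0.83 to 0.97. Between these 5 and the other 3 genes r ran from 0.23 to 0.87, so the 2 ranges overlapped. Of the 8 genes, 7 had their lowest value in *Usp24* WT mouse WT_1370, which held the lowest value of 16.5% of all tested genes.

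The differences of the 5 genes depended on single mice of both genotypes. Without *Usp24* C1695A mouse KO_145 they were larger, at 3.63 for *Bpifa1*, 3.24 for *Reg3g*, 2.75 for *Bpifb1*, 2.97 for *Scgb3a1* and 1.52 for *Muc5b*. Without *Usp24* C1695A mouse KO_134 they were 2.41, 1.67, 1.0, 1.07 and 0.69 in the same order. Without *Usp24* WT mouse WT_1354, the log2 difference of *Bpifa1* was 4.68 (unadjusted p = 0.000516, adjusted p = 0.978 by limma-trend), that of *Reg3g* 4.37, that of *Bpifb1* 3.28, that of *Scgb3a1* 3.02 and that of *Muc5b* 1.85. Without this mouse, every *Usp24* C1695A mouse had Y-linked reads and neither remaining *Usp24* WT mouse had any. Genotype and the presence of Y-linked reads cannot be told apart there. Without *Usp24* WT mouse WT_1370, the same genes gave 2.41, 0.98, 0.94, 0.82 and 0.14 in the same order. Without *Usp24* WT mouse WT_1364, whose value rested on 3 reads for *Bpifa1*, they gave 1.53, 2.21, 1.0, 1.48 and 0.38. With the mean of the Y-linked genes as a covariate, the difference turned negative for these 5 genes (-0.74, -1.19, -1.35, -0.73 and -1.32 in the same order) and for *Pigr* (-0.13), and it stayed positive for *Scgb1a1* and *Scgb3a2*. In that fit the 2 *Usp24* WT mice without Y-linked reads say little about the genotype, which is then read mainly from mouse WT_1354.

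**Figure D3:**
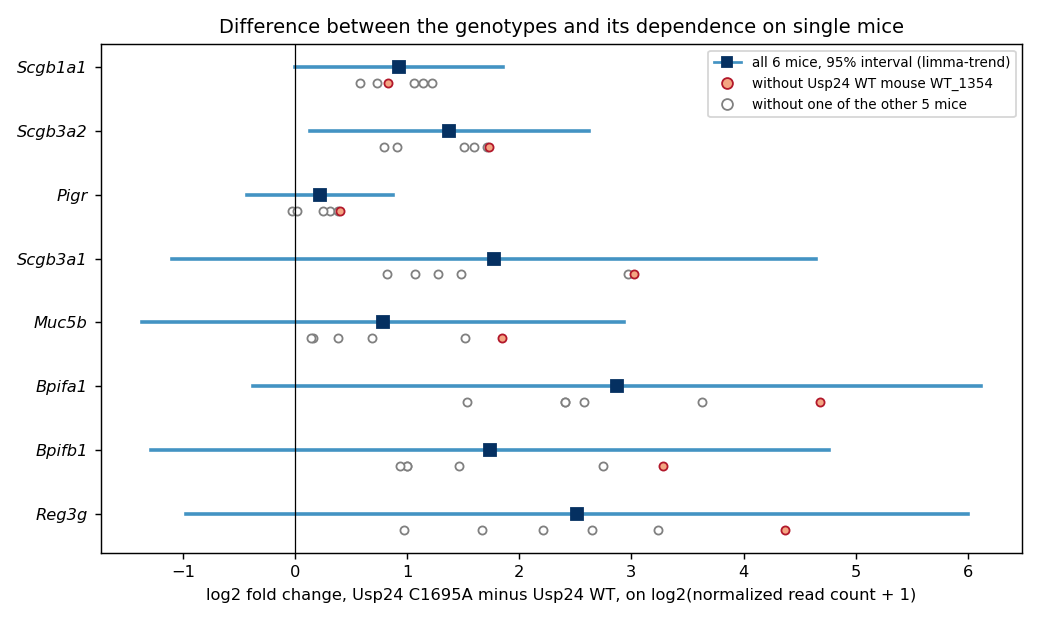
Log2 difference between *Usp24* C1695A and *Usp24* WT for each gene (square, with its 95% interval by limma-trend), and the difference without each single mouse (circles, without mouse WT_1354 in red). The interval of *Scgb3a2*, 0.13 to 2.62, lies above 0 and that of *Scgb1a1* begins just above it at 0.0012, and for the 5 genes below *Pigr* the circle without mouse WT_1354 lies farthest to the right. Without mouse WT_1354, genotype and the presence of Y-linked reads cannot be told apart.

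Other genes of club cells, a list of 20 of which 18 were tested, had a positive difference in 16 and a negative one in 2, with a median of 0.56. None passed the adjusted threshold by limma-trend, edgeR or DESeq2, and 1 had an unadjusted p under 0.05. That gene was *Hp*, haptoglobin, with 3209, 4108 and 4673 normalized counts in *Usp24* C1695A mice and 2210, 3610 and 2158 in *Usp24* WT mice (log2 difference 0.61, unadjusted p = 0.0402). *Cyp2f2*, the club cell P450 that activates naphthalene in mice, had 1994, 2816 and 6361 normalized counts in *Usp24* C1695A mice and 2329, 2323 and 1342 in *Usp24* WT mice (0.77, SE 0.42). It was thus highest in mouse KO_164 and lowest in mouse WT_1370, as *Scgb1a1* was. *Cyp4b1*, another lung P450, and *Gsto1*, a glutathione transferase, had differences of 0.61 and 0.58. *Cyp2a5*, chosen after its values were seen as the gene with the largest difference of the list (2.01), had 398, 46.5 and 855 normalized counts in *Usp24* C1695A mice and 222, 96.4 and 10.3 in *Usp24* WT mice. Of the 18 genes, 13 had their highest value in mouse KO_164, where 27.9% of all tested genes had theirs, and the median of the list was 0.25 without that mouse and 0.34 without mouse WT_1370.

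Markers of ciliated cells, which line the same airways, had a like order of mice. All 12 of the list were tested and had a positive difference, with a median of 0.43 and 0 at an unadjusted p under 0.05, and 9 of them were highest in mouse KO_164 and 8 lowest in mouse WT_1370. Their summed level was 1857 to 4126 normalized counts in *Usp24* C1695A mice and 1771 to 2568 in *Usp24* WT mice. *Foxj1*, the master regulator of motile cilia, had 104, 109.8 and 192 normalized counts in *Usp24* C1695A mice and 114, 124 and 79.0 in *Usp24* WT mice. Alveolar type 2 markers stood opposite, with a negative difference in 8 of 8 (median -0.77, 1 at an unadjusted p under 0.05), all 8 lowest in mouse KO_164, and a summed level of 194453 to 581475 normalized counts in *Usp24* C1695A mice against 611649 to 749246 in *Usp24* WT mice. *Sftpc*, surfactant protein C, had 67192 normalized counts in mouse KO_164. Heart muscle genes were also highest in mouse KO_164 (7 of 7), and all 7 had a positive difference, an unadjusted p under 0.05 and genotypes that did not overlap, for example *Myh6*, the atrial myosin heavy chain, with 132, 72.2 and 1323 normalized counts in *Usp24* C1695A mice and 23.9, 7.20 and 24.4 in *Usp24* WT mice. The summed level of adipose markers was 704, 11486 and 190735 normalized counts in *Usp24* C1695A mice and 654, 656 and 510.4 in *Usp24* WT mice. Of 6 skeletal muscle markers only 1 was among the genes analysed here, and it did not pass the filter on low values. That single gene had 5.07, 7.91 and 6767 normalized counts in *Usp24* C1695A mice and 4.16, 1.44 and 1.88 in *Usp24* WT mice, so that mouse KO_164 stood far above the other 5. The part of these cell types in the differences of the secretory genes was not tested.

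**Figure D4:**
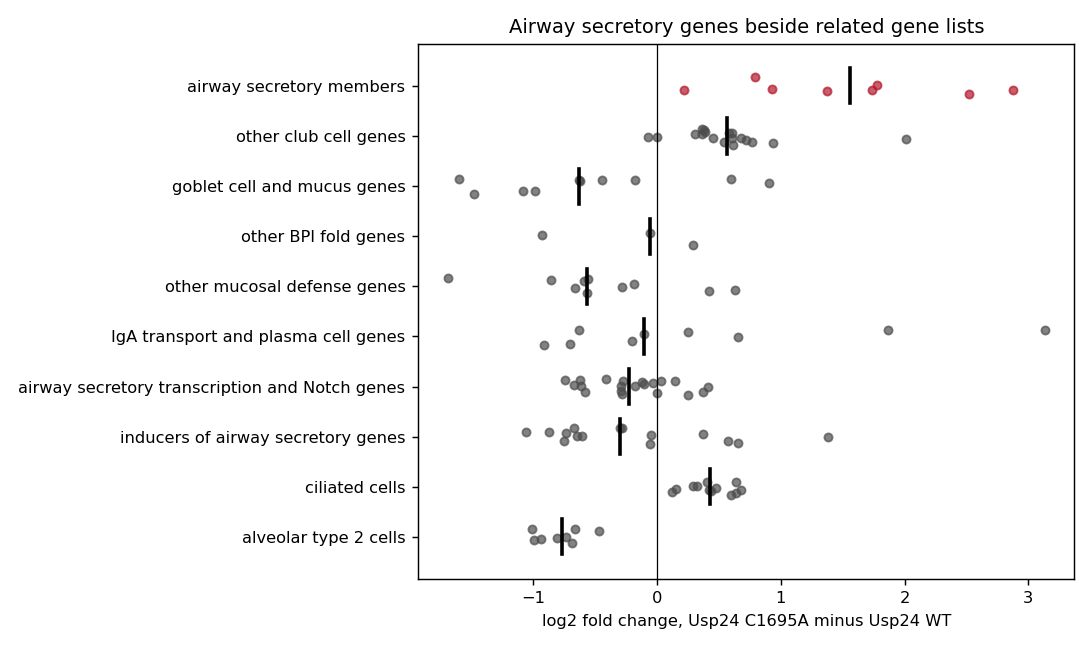
Log2 difference between *Usp24* C1695A and *Usp24* WT for each tested gene (points, red for the 8 airway secretory genes) in 10 gene lists, with a bar at the median of each list. The medians were 1.56 for the 8 genes, 0.56 for other club cell genes, 0.43 for ciliated cell genes and -0.77 for alveolar type 2 genes.

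Most of the tested goblet cell and mucus genes had a negative difference, where that of *Muc5b* was positive but below its SE (0.79, SE 0.94). Of 20 listed genes 10 were tested, and 2 had a positive and 8 a negative difference, with a median of -0.63 and 4 whose genotypes did not overlap (11.1% of all tested genes). *Spdef* and *Foxa3*, which were among these 4, had no more than 15 reads in any library. The 2 genes with a positive difference were *Muc16* (0.91) and *Fcgbp* (0.60), and *Fcgbp* had its highest values in mice KO_134, WT_1354 and KO_164, as *Muc5b* did. *Muc4*, a membrane-bound mucin, had 216, 250.3 and 178 normalized counts in *Usp24* C1695A mice and 537, 302 and 568 in *Usp24* WT mice. The genotypes did not overlap, and the log2 difference of -1.08 (SE 0.28) had an unadjusted p of 0.00472 and an adjusted p of 0.738 by limma-trend. *Slc26a4*, the anion exchanger pendrin, had 1663, 1816 and 643 normalized counts in *Usp24* C1695A mice and 3939, 2007 and 5371 in *Usp24* WT mice (log2 difference -1.48, SE 0.46, unadjusted p = 0.0118). *Muc4* and *Slc26a4* ranked the mice as the mean of the alveolar type 2 markers did, with mouse WT_1370 first and mouse KO_164 last. The membrane mucins *Muc20* (-0.99) and *Muc1* (-0.63) had overlapping genotypes and other orders of mice. The part of alveolar type 2 cells in these differences was not tested. *Muc5ac*, the gel-forming mucin of goblet cells, was not among the genes analysed here.

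Relatives of the antimicrobial genes were few. Of 14 other BPI fold genes 3 were tested, and none followed *Bpifa1* and *Bpifb1*. *Bpifb5* had 16.2, 10.9 and 7.92 normalized counts in *Usp24* C1695A mice and 12.5, 11.5 and 11.3 in *Usp24* WT mice (log2 difference -0.06), and *Bpifa2* had a difference of 0.29. *Lbp*, the lipopolysaccharide-binding protein, had a difference of -0.93 (unadjusted p = 0.0298). Among 10 tested genes of other mucosal defense, 2 had a positive and 8 a negative difference, with a median of -0.56 that became -0.066 without mouse KO_164. *Ltf*, the iron-binding lactoferrin and chosen after its values were seen, had 180.4, 51.4 and 154 normalized counts in *Usp24* C1695A mice and 162, 37.4 and 63.0 in *Usp24* WT mice. Its 3 highest mice were those of *Bpifa1*. *Lyz1*, the other gene of this list with a positive difference (0.42), had its 3 highest values in mice KO_164, KO_145 and WT_1370. *Chil1*, a chitinase-like lectin, had a difference of -0.59 (unadjusted p = 0.0260), and *Chil3*, the chitinase-like protein of mouse alveolar macrophages, had -1.69 with 1358 normalized counts in mouse KO_164. Of the secretoglobins outside the 8 genes only *Scgb1c1* was tested (0.37), and the other *Reg* lectins were not among the genes analysed here.

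Genes for the cargo of the *Pigr* receptor ranked the mice in other orders. *Jchain*, the joining chain of polymeric IgA and IgM, had 122, 1682 and 8644 normalized counts in *Usp24* C1695A mice and 239, 57.6 and 188 in *Usp24* WT mice (log2 difference 3.13, SE 1.32, unadjusted p = 0.0431). It was high in mice KO_145 and KO_164 alone, as were B cell genes such as *Cd79a*, with 22.3, 1103 and 402 normalized counts in *Usp24* C1695A mice and 19.7, 21.6 and 20.7 in *Usp24* WT mice. *Prdm1* and *Irf4*, regulators of plasma cells, had differences of 0.65 and 1.87, and *Sdc1*, a plasma cell and epithelial proteoglycan, had -0.63. *Igha*, the heavy chain of IgA and chosen after its values were seen, had 51.7, 113 and 55.4 normalized counts in *Usp24* C1695A mice and 184, 43.2 and 178 in *Usp24* WT mice.

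Among cytokines, receptors and signal carriers that induce airway secretory genes, 4 of 15 tested genes had a positive and 11 a negative difference (median -0.30), and an unadjusted p under 0.05 was reached by 1 of the 4 and by 4 of the 11, against 2.61% of all tested genes with a positive and 2.93% with a negative difference. *Socs3*, a target and feedback inhibitor of STAT3, had 439, 425 and 261 normalized counts in *Usp24* C1695A mice and 624, 926 and 764 in *Usp24* WT mice. The genotypes did not overlap (log2 difference -1.06, SE 0.26, unadjusted p = 0.00305, adjusted p = 0.738 by limma-trend). *Stat3* itself had 2400.3, 2544 and 1489 normalized counts in *Usp24* C1695A mice and 3103, 2955 and 3513 in *Usp24* WT mice (-0.61, unadjusted p = 0.0300). *Il6*, a cytokine that acts through STAT3, had a difference of -0.87 (unadjusted p = 0.0368), and *Il4ra*, a receptor chain for interleukins 4 and 13, had -0.75 (unadjusted p = 0.0346). *Il6ra*, a receptor chain for the product of *Il6* and chosen after its values were seen, had a positive difference of 0.65 (unadjusted p = 0.0412 by limma-trend). For *Reg3g*, whose induction in mouse epithelia runs through STAT3, the difference was 2.52 (SE 1.53, unadjusted p = 0.136 by limma-trend). It was -1.19 with the Y-linked covariate. Without the covariate, its sign was opposite to those of *Socs3*, *Stat3* and *Il6* and the same as that of *Il6ra*. The difference between these differences was not tested.

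Of 20 transcription factors and Notch pathway genes of airway secretory cells, all were tested, with 6 positive and 14 negative differences and a median of -0.23. *Cebpd*, a C/EBP factor, had 219, 158 and 212 normalized counts in *Usp24* C1695A mice and 236, 515 and 287 in *Usp24* WT mice (-0.75, unadjusted p = 0.0440). The epithelial factors *Klf5* (-0.61) and *Grhl2* (-0.62) and the Notch target *Hey1* (0.37) had an unadjusted p above 0.05. *Foxa2* and *Nkx2-1*, factors of the forkhead and NKX2-1 motifs above and chosen after their values were seen, had differences of 0.25 and -0.29. None of the lists of club cell, mucus, BPI fold, defense, IgA, inducer and transcription genes held a gene past the adjusted threshold by limma-trend, edgeR or DESeq2.

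Among 12617 genes with a mean of at least 50 normalized counts, those most like each secretory gene over the 6 libraries were named by Pearson's r of log2 values, as a description of 6 libraries that differ in genotype and in the marker levels above. *Guf1* (r = 0.999), *Pln* (0.997) and *Cisd3* (0.996) lay closest to *Scgb1a1*. *Pln*, phospholamban of heart muscle, had 81.1, 94.97 and 350.4 normalized counts in *Usp24* C1695A mice and 31.2, 77.7 and 26.3 in *Usp24* WT mice. *Pigr* was most like *Dnali1* (0.991), *Erich3* (0.990) and *Cacna1a* (0.981). *Dnali1*, a light intermediate chain of axonemal dynein, had 58.8, 43.5 and 103 normalized counts in *Usp24* C1695A mice and 71.7, 51.8 and 33.8 in *Usp24* WT mice, so that both genes put mouse KO_164 first and mouse WT_1370 last. *Scgb3a2* lay closest to *Pigp* (0.994), *Pmm1* (0.991) and *Akr1e1* (0.985), and *Muc5b* to *Tcf19* (0.982), *Acyp1* (0.977) and *Capsl* (0.973). *Exosc4* (0.998), *Tst* (0.985) and *Pop4* (0.981) came closest to *Scgb3a1*, but *Exosc4* ran only between 94.0 and 109 normalized counts where *Scgb3a1* ran between 7.52 and 288. *Bpifa1* was most like *Srr* (0.976), *Fzd2* (0.969) and *1110059G10Rik* (0.969), and *Bpifb1* most like *1110059G10Rik* (0.989), *Iqce* (0.983) and *Esrra* (0.980). For *Reg3g* the closest were *Nat9* (0.985), *Nprl3* (0.980) and *Kbtbd3* (0.976).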

How the data were processed

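The authors deposited normalized read counts (signal values, in which a single factor scales the counts of each library) for 17987 genes. HISAT2 2.1.0 and mm39 come from the submitters' processing notes, and the read counter, annotation and gene filter are not given in the sources used here. No gene has fewer than 2 libraries with 5 reads or more. All 107922 values were whole multiples of their library's step within 1e-06 (100%), which recovers whole reads. For mouse KO_145 the step lies so near 1 that this rests on the residuals.

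The 16640 genes that reached a value of 10 in 3 or more of the 6 libraries entered limma-trend (limma 3.58.1, R 4.3.3) on log2(value + 1), at a Benjamini-Hochberg adjusted p under 0.05. Adding 1 shrinks log2 differences of low genes, yet edgeR and DESeq2 gave smaller differences than limma-trend for *Bpifa1*, *Reg3g* and *Bpifb1*. EdgeR 4.0.16 and DESeq2 1.42.0 were run on recovered reads (the methods of the study name the DESeq package). Other pseudocounts, filters, normalizations, array weights, a Y-linked covariate and leaving out each mouse were tried. Fits were tested on simulated data. Figures used matplotlib 3.10.9. The labels do not state that mice came from separate litters or batches, so p-values measure the spread between these mice.

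The secretory genes and all lists were chosen with earlier results of these data known. Of each list, the up to 4 tested genes with the lowest p, the first marker of marker lists used, and per secretory gene the 3 most correlated genes were named. *Usp24*, *Cyp2a5*, *Igha*, *Il6ra*, *Foxa2*, *Nkx2-1*, *Muc5ac*, *Ltf*, *Lyz1*, *Spdef*, *Foxa3*, *Fcgbp* and *Muc16* were named besides.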

Additional observations from a re-analysis of the deposited data

How the results depend on the processing

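None of the 8 secretory genes passed an adjusted p of 0.05 under any of 17 alternatives by limma-trend, edgeR or DESeq2. *Scgb1a1* (log2 difference 0.58 to 1.22) and *Scgb3a2* (0.67 to 1.73) stayed positive under all 17, with lowest adjusted p of 0.0847 and 0.288. With array weights the difference turned negative for *Scgb3a1* (-0.39), *Muc5b* (-0.86), *Bpifb1* (-0.54) and *Pigr* (-0.078), and with the Y-linked covariate for *Scgb3a1* (-0.73), *Muc5b* (-1.32), *Bpifa1* (-0.74), *Bpifb1* (-1.35), *Reg3g* (-1.19) and *Pigr* (-0.13), which took the median over the 8 genes to -0.73. The cause was not tested. Leaving out single mice gave *Pigr* a range of -0.031 (without mouse KO_164) to 0.40, the median of other mucosal defense genes a range of -0.71 to -0.066 (without mouse KO_164), and the count of genes called over all genes a range of 0 to 40 (40 without mouse KO_134, 5 without mouse WT_1354). DESeq2 called 36 genes. The other values of single secretory genes kept their direction, and among the list medians those nearest 0 changed sign within the spread between mice (BPI fold genes 0.17 without mouse KO_164, IgA genes 0.075 without mouse KO_145). BPI fold genes had too few tested members under the filter at 50 for a value. No paired analysis was possible because the genotypes share no mouse numbers. Depth limits *Bpifa1* and *Reg3g*, each with a library of 3 reads, *Bpifb1*, with libraries of 5 and 7 reads, and *Scgb3a1*, with one of 8.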
